A study of Mus musculus with 6 samples.

Results

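The diacylglycerol branch of T cell receptor (TCR) signaling was examined through 9 genes, chosen by symbol. They are the protein kinase C (PKC) genes Prkcq, Prkch, Prkcd, Prkca and Prkcb, the diacylglycerol kinase genes Dgka and Dgkz, and the Ras exchange factor genes Rasgrp1 and Sos1. All 9 were found among the 23183 gene symbols of the files, and all 9 passed the filter on low values. The mRNA came from sorted CD4+ CD8+ double positive (DP) thymocytes of C57BL/6 mice at 6 weeks of age, in 3 libraries from Nsrp1 f/f mice (WT) and 3 from Nsrp1 f/f CD4Cre mice (NSrp70-cKO). Both groups carry the loxP-flanked Nsrp1 alleles, and the cKO mice also carry the CD4Cre transgene, which deletes Nsrp1 in cells that have switched on Cd4. The WT mice carry no Cre, so an effect of the transgene itself cannot be told apart from the loss of Nsrp1. The labels do not say whether the libraries of a group came from separate mice, and p-values measure the spread between these libraries, which may be technical.

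When the TCR is engaged, phospholipase C gamma 1 cleaves a membrane lipid into inositol trisphosphate and diacylglycerol. Diacylglycerol recruits PKC isoforms and the exchange factor RasGRP1 to the membrane through their C1 domains, and RasGRP1 loads Ras with GTP and so starts the ERK cascade. SOS1 loads Ras as well, but is brought to the membrane by the adaptor GRB2. Diacylglycerol kinases end the signal by converting diacylglycerol into phosphatidic acid. In DP thymocytes the RasGRP1 and ERK route is known to be needed for positive selection.

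The targeted gene, listed under its older symbol Ccdc55, had an FPKM of 20.2, 20.7 and 21.1 in WT and of 17.7, 15.8 and 15.0 in cKO (log2 fold change -0.34, adjusted p = 0.00675 from limma). FPKM is a fragment count scaled to transcript length and to the number of mapped fragments, and it sums over the whole gene, so a loss of the deleted part alone cannot be read from it. The depth estimated from the steps of 1 fragment was 20.7 to 20.8 M fragments in WT and 13.2, 20.7 and 17.4 M in cKO 1, 2 and 3 (M, mega), and the FPKM values summed to between 521296 and 531517 in WT and between 701396 and 850548 in cKO. Over the counting noise, WT libraries differed from each other by a factor of at most 1.61 and cKO libraries by 32.3 to 73.4, so the fit was also run with WT taken as 1 sample. The 4 tested genes of chromosome Y were at 0 in every WT library and above an FPKM of 1 in every cKO library, so sex and genotype cannot be told apart. All 10 marker genes of DP thymocytes passed the filter on low values (6 rose and 3 fell), their summed FPKM running from 5097 to 5182 in WT and from 6947 to 9039 in cKO.

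In the fit across 10326 genes, 6 of the 9 genes fell in NSrp70-cKO DP thymocytes and 0 rose, where 65.5% of all tested genes were called, 29.8% lower and 35.8% higher. The share called, 6 of 9, was thus close to that of all tested genes. The genes that fell were Dgkz, Prkch, Prkcd, Sos1, Prkca and Dgka. Prkcq, Prkcb and Rasgrp1 did not pass the test. The log2 fold changes of the 9 genes had a median of -0.38, beside 0.039 over the 10326 genes. In the same 6 genes the groups did not overlap, with each cKO value under each WT value, as in 33.3% of the tested genes (72.5% with either direction). Dgkz and Prkch were at least 2-fold lower, a change met by 4.71% of the tested genes. These fold changes are differences on the log2(FPKM + 1) scale.

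**Figure D1:**
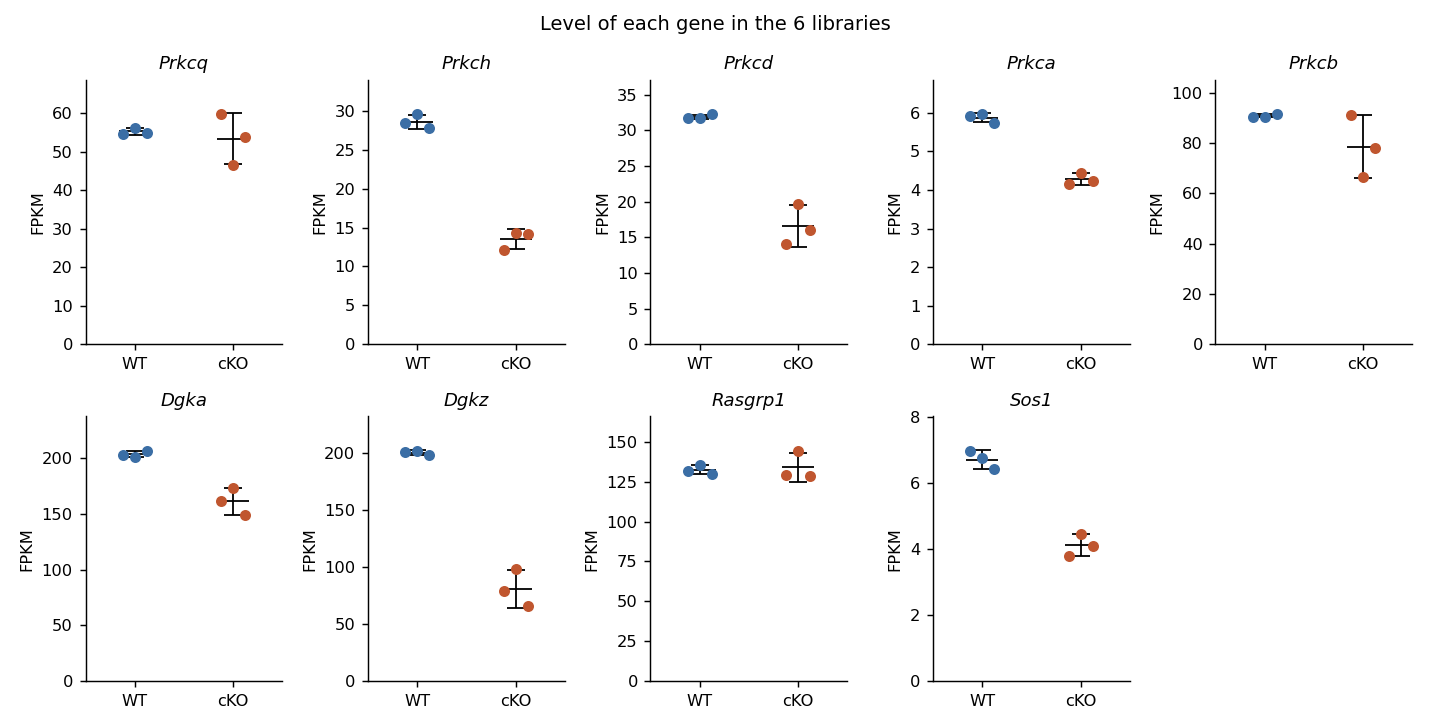
FPKM (vertical axes, from 0) of each of the 9 genes in the 3 WT and 3 cKO libraries; points are libraries and bars the mean and SD. The cKO points of Dgkz, from 65.6 to 98.3, lie far below the WT points near 200.2, whereas the Rasgrp1 points of the groups overlap.

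**Figure D2:**
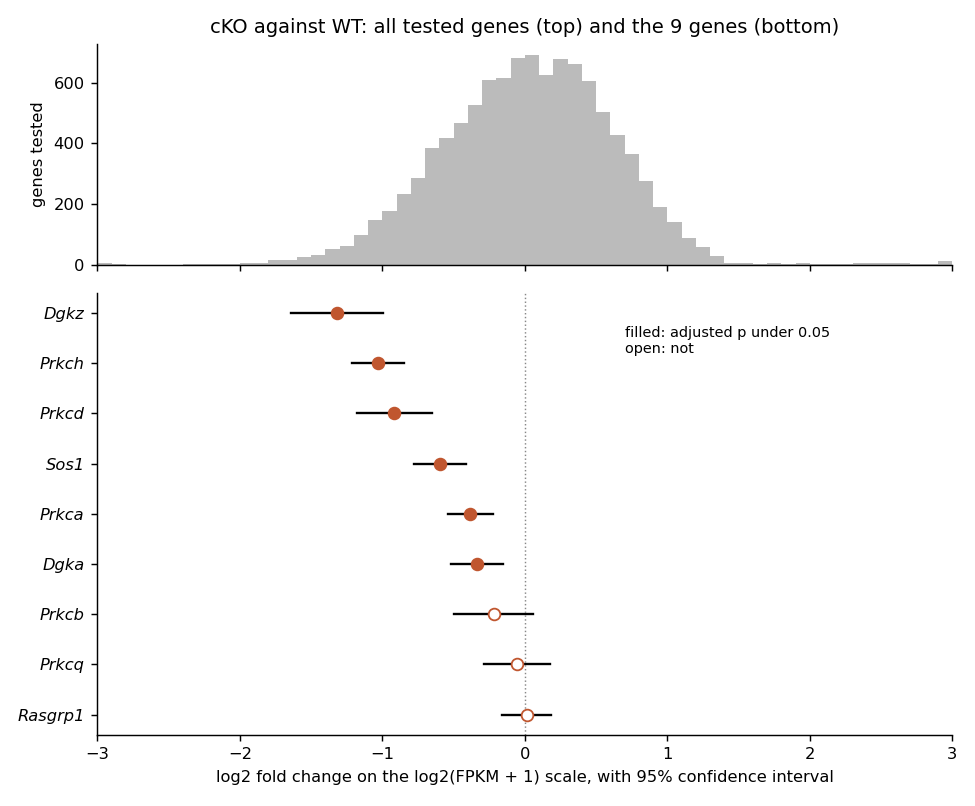
The upper panel is a histogram of the log2 fold changes of the 10326 tested genes (values beyond 3 in either direction are drawn at 3), and the lower panel gives the log2 fold change of each of the 9 genes with its 95% confidence interval. The filled points, 6 of 9, passed an adjusted p of 0.05, and Dgkz lies farthest from 0 at -1.32.

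The sequences upstream of a transcript start of 4 of these genes are shown because 3 of them fell (Dgkz, Prkcd and Sos1) while Rasgrp1 did not pass the test. They come from RefSeq on GRCm38.p6 and run 5′ to 3′ on the strand of the gene. They end at or before the RefSeq transcript start and leave out every base that GENCODE places in an exon. The Dgkz stretch lies inside the gene, which GENCODE places from 91932824 to 91975864, before an internal start. The stretches of Prkcd, Sos1 and Rasgrp1 lie directly before the gene. Capitals mark matches on either strand to the Sp1 box GGGCGG, the RUNX motif TGTGGT or the TCF motif CTTTGA.
Dgkz (chr2:91963658-91963813, minus strand): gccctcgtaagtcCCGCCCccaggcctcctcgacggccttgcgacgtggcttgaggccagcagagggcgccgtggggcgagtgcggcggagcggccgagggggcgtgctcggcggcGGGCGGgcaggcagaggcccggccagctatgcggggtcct
Prkcd (chr14:30626211-30626458, minus strand): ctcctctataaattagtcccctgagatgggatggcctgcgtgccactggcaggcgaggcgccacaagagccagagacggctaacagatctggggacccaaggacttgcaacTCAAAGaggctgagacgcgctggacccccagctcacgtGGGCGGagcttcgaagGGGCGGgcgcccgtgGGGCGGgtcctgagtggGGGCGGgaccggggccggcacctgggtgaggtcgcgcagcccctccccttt
Sos1 (chr17:80480454-80480703, minus strand): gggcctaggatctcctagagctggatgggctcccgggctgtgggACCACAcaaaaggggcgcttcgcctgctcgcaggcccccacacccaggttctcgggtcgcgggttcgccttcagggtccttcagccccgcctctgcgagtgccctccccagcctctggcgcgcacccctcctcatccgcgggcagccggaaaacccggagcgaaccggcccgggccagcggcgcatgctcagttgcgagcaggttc
Rasgrp1 (chr2:117343002-117343127, minus strand): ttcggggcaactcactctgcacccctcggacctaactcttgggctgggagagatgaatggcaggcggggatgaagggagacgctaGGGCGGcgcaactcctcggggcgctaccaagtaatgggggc
The stretches of Dgkz, Prkcd and Rasgrp1 hold 2, 4 and 1 copies of the Sp1 box, and that of Sos1 holds none. Over the 250 bases before each RefSeq start, the Sp1 box was present in 10 of the 13 windows of these genes and in 32.7% of all 32817 windows of that length. The 13 are not independent, since Dgka, Dgkz and Prkcd have several windows each and some of Dgka overlap. By gene, 7 of the 8 with an entry held the box. The 32817 windows were limited neither to expressed genes nor to CpG-rich starts, and a share matched for these was not computed. The E-box CAGCTG was found at Prkcb and at another start of Prkcd, and in 13.0% of all windows. TGTGGT was found at Sos1 alone of the 8 (14.0% of all windows) and CTTTGA at Dgka and Prkcd (13.8%). Searched in the same way, the CRE motif TGACGTCA (1.55% of all windows), the AP-1 motif TGANTCA (6.75%) and the ETS motif CCGGAAG (6.90%) had no match in any of the 13 windows of these genes. The 250 bases before these starts held 33 CpG pairs at Dgkz, 21 at Rasgrp1, 22 at Sos1 and 18 at Prkcd, against a median of 6 over all windows. Before another start of Dgkz and of Prkcd there were 9 and 1, and which start the cells used was not tested. Dgkz, which fell most before length and GC trends were removed, and Rasgrp1, which did not pass the test, both had a CpG-rich start with the Sp1 box. Prkch had no entry.

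Dgkz encodes the zeta isoform of diacylglycerol kinase, and lies on chromosome 2 from 91932824 to 91975864 of GRCm38, the assembly of mm10, on the minus strand. Its FPKM was 201, 202 and 198 in the 3 WT libraries and 78.7, 98.3 and 65.6 in the 3 cKO libraries. The cKO level was 40.4% of the WT level, and the groups were far apart, with cKO 2 the closest to WT. The log2 fold change was -1.32 (SE 0.14, n = 3 per group, adjusted p = 0.000322 from limma), lower than in all but 1.55% of the tested genes. Its longest coding transcript has a GC content of 59.6%, against a median of 49.96% over 10245 tested genes. Across those genes, none of them an independent replicate, the log2 fold change and GC content had a Spearman's rho of -0.33. With transcript length it was -0.30. Once trends with transcript length and GC were removed from each library, Dgkz was at -0.69 (adjusted p = 0.00467 from limma). It then no longer fell most of these genes, with Prkch at -0.92 and Prkcd at -0.89.

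Dgka, the alpha isoform (chromosome 10, 128720134 to 128744855, minus strand), is the other diacylglycerol kinase most often studied in T cells. Its FPKM was 203, 202 and 207 in WT, the same level as that of Dgkz, and 162, 174 and 150 in cKO (149.5 in cKO 3). All cKO values lay below all WT values, but the fall was much shallower, with a log2 fold change of -0.34 (SE 0.078, adjusted p = 0.00730). Taking WT as 1 sample gave it an adjusted p of 0.246. Its log2 fold change was -0.77 under quantile normalization and -0.90 with the same FPKM total. The gene Pmel overlaps Dgka on the opposite strand, and the strand setting of the counting is not given in the sources used here, so reads of the pair cannot be told apart. The same holds for parts of Dgkz, Prkcq, Prkca, Prkcb and Sos1, which overlap other genes on the opposite strand in GENCODE.

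Within each library the ratio of Dgka to Dgkz was 1.01, 1.00 and 1.04 in WT and 2.06, 1.77 and 2.28 in cKO. Such a ratio does not depend on how libraries are scaled to each other. It was higher in cKO by 0.99 on the log2 scale, and the groups did not overlap (exact permutation test, two-sided, p = 0.1, the smallest that 3 against 3 allow, and 0.1 after adjustment over the 6 ratios). The groups did not overlap in 72.5% of single tested genes, and that share was not computed for ratios of other gene pairs. In the fits, the difference between the log2 fold changes of Dgka and Dgkz was 0.98, and 0.34 once the length and GC trends were removed. The summed FPKM of Dgka and Dgkz was 401 ± 1.72 (SD, n = 3) in WT and 241 ± 27.0 (SD, n = 3) in cKO, or 59.9% of the WT level (exact permutation test, two-sided, p = 0.1). The difference of the sums, -160.8, was -289 with every library scaled to the same FPKM total.

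Among the PKC genes the order of the WT levels was Prkcb, Prkcq, Prkcd, Prkch and Prkca, and no library of one gene reached the level of its neighbour. In cKO the order of the means was the same, but the values of Prkcd and Prkch overlapped. Prkch encodes PKCη, an isoform that needs diacylglycerol but not calcium. It lies on chromosome 12 from 73584796 to 73778185 on the plus strand, with no overlapping gene in GENCODE. Its FPKM was 28.4, 29.6 and 27.8 in WT and 12.1, 14.3 and 14.2 in cKO. The cKO libraries were close to each other and all lay below WT, at 47.4% of its level, with a log2 fold change of -1.03 (SE 0.078, adjusted p = 0.000142). Of the 9 genes, Prkch had the largest change relative to its error.

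Prkcd encodes PKCδ, another calcium-independent isoform, known for roles in cell death and in B cell tolerance (chromosome 14, 30595354 to 30626210, minus strand). Its FPKM was 31.7, 31.6 and 32.2 in WT and 14.0, 19.7 and 15.997 in cKO. No cKO value reached WT, and cKO 2 was again the nearest. The log2 fold change was -0.92 (SE 0.11, adjusted p = 0.000561). GENCODE lists 13 transcripts of Prkcd, which the FPKM sums, so that changes between isoforms cannot be seen here. Prkcd is also expressed by myeloid cells. Their 8 markers summed to an FPKM of 14.0 to 18.5 in WT and 14.7 to 19.4 in cKO. Of the 6 tested, 1 was called higher (Tyrobp, mean FPKM 2.02 in WT and 3.54 in cKO) and 0 lower. Over all tested genes 35.8% were called higher and 29.8% lower.

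Prkcq encodes PKCθ, the calcium-independent isoform that gathers at the T cell contact and drives NF-κB activation (chromosome 2, 11172108 to 11301222, plus strand). It had an FPKM of 54.6, 56.2 and 55.0 in WT and of 59.7, 46.6 and 53.9 in cKO. The cKO values lay on both sides of WT, and the log2 fold change was -0.056 (95% confidence interval -0.29 to 0.18, adjusted p = 0.635 from limma). Prkcq would have passed the test under quantile normalization, with a log2 fold change of -0.26 (adjusted p = 0.0214). Without cKO 2 its log2 fold change was 0.046.

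The conventional isoforms, which need calcium as well as diacylglycerol, were the most and the least abundant of the 5. Prkcb (chromosome 7, 122288751 to 122634402, plus strand) encodes PKCβ, best known from B cells. Its FPKM was 90.4, 90.4 and 91.4 in WT and 91.3, 66.5 and 78.0 in cKO. One cKO library, cKO 1, was at the WT level while the others lay below it, and the log2 fold change of -0.22 (95% confidence interval -0.49 to 0.059) did not pass the test (adjusted p = 0.140 from limma). It passed without cKO 1, at -0.33 (adjusted p = 0.0183). Of the 7 B cell markers, 6 were under an FPKM of 1 in every library, and Cd79b, the exception, was called higher in cKO, their sum running from 23.3 to 24.8 in WT and from 27.3 to 39.99 in cKO. Prkca, which encodes PKCα (chromosome 11, 107933387 to 108343928, minus strand), had an FPKM of 5.92, 5.97 and 5.74 in WT and 4.14, 4.45 and 4.25 in cKO. The groups did not overlap, and the log2 fold change was -0.38 (SE 0.066, adjusted p = 0.00218), but the adjusted p was 0.138 with WT taken as 1 sample. Once length and GC trends were removed, Prkca was at -0.23 (adjusted p = 0.0216 from limma). It was the PKC gene with the closest cKO libraries, with a coefficient of variation of 3.64%.

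The isoforms thus made up different shares of the summed PKC level in the groups. Prkch made up 13.5% ± 0.365 (SD, n = 3) of the summed PKC level in WT and 8.22% ± 1.41 in cKO, and Prkcd 15.0% ± 0.196 and 10.1% ± 2.67. The share of Prkcq was 26.02% ± 0.229 in WT and 32.0% ± 1.13 in cKO. The ratio of Prkcq to Prkch was 1.92, 1.90 and 1.98 in the WT libraries and 4.93, 3.26 and 3.79 in the cKO libraries. The ratio of Prkcd to Prkcq was 0.580, 0.563 and 0.586 in WT and 0.235, 0.423 and 0.297 in cKO. Neither ratio overlapped between the groups, with differences of 1.03 and -0.90 on the log2 scale (exact permutation tests, two-sided, p = 0.1 each, also after adjustment over 6 ratios). How often ratios of other gene pairs do not overlap was not computed. The summed level of the 5 genes was 211 ± 0.780 (SD, n = 3) in WT and 165 ± 15.8 (SD, n = 3) in cKO. The difference was -45.7, or -121 with every library scaled to the same FPKM total.

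Rasgrp1, the diacylglycerol-dependent exchange factor, lies on chromosome 2 from 117279993 to 117343001 on the minus strand. Its FPKM was 132, 136 and 130.1 in WT and 129, 144 and 128 in cKO. The WT values lay within the range of the cKO values, and the log2 fold change was 0.013 (95% confidence interval -0.16 to 0.18, adjusted p = 0.883 from limma). Sos1, the adaptor-recruited factor (chromosome 17, 80393751 to 80480453, minus strand), was at a far lower level. Its FPKM was 6.98, 6.75 and 6.43 in WT and 3.80, 4.47 and 4.11 in cKO. The groups did not overlap, and the log2 fold change was -0.59 (SE 0.077, adjusted p = 0.000702). With WT taken as 1 sample the adjusted p of Sos1 was 0.0609.

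The exchange factors were also compared with each other, and Rasgrp1 with the kinases that remove its activating lipid, within each library. The ratio of Rasgrp1 to Sos1 was 18.9, 20.1 and 20.2 in WT and 34.1, 32.3 and 31.3 in cKO, a difference of 0.72 on the log2 scale. The ratio of Rasgrp1 to the sum of Dgka and Dgkz was 0.327, 0.336 and 0.321 in WT and 0.538, 0.531 and 0.597 in cKO, a difference of 0.76. Both ratios were higher in every cKO library than in every WT library. The 5 PKC genes over the same sum gave 0.522, 0.530 and 0.524 in WT and 0.754, 0.558 and 0.774 in cKO, where cKO 2 stood close to WT. For each of the 3 ratios the exact two-sided permutation test gave p = 0.1, the smallest possible. These ratios share genes, and how often ratios of other gene pairs separate the groups was not computed.

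**Figure D3:**
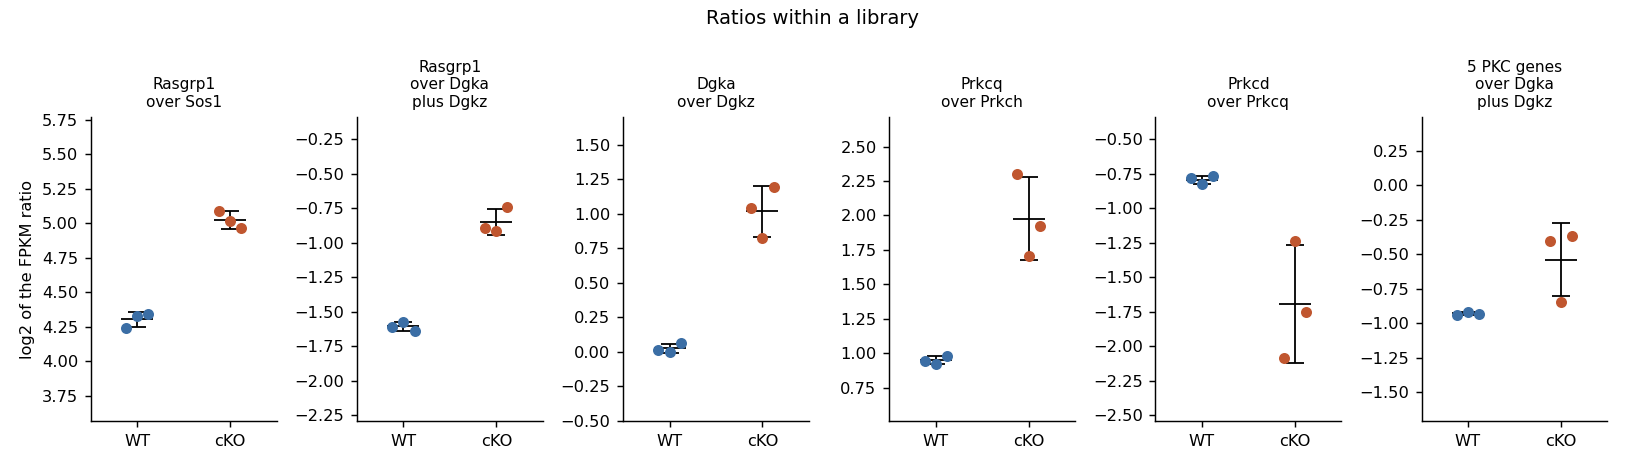
Log2 of the ratio of FPKM values within each library (vertical axes, each spanning the same range) for 6 ratios; points are libraries and bars the mean and SD. The groups do not overlap in any of the 6 ratios, and the gap is narrowest for the 5 PKC genes over Dgka plus Dgkz, where cKO 2 is at 0.558 and the highest WT library at 0.530. The ratios share genes, and in 72.5% of single tested genes the groups do not overlap either.

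The calls of Prkcq, Prkcb and Rasgrp1 depended on how the libraries were scaled to each other. Under quantile normalization all 9 genes were called lower, where 63.1% of all genes were called (29.4% lower and 33.6% higher). With every library scaled to the same FPKM total all 9 were again called lower, where 68.6% of all genes were called (59.9% lower and 8.74% higher), and the median over the 10326 genes moved from 0.039 to -0.45. Under these settings Rasgrp1 was at -0.38 (adjusted p = 0.00992) and -0.54 (adjusted p = 0.00409), and Prkcb at -0.53 and -0.77. The same FPKM total also put Prkch at -1.56, Prkcd at -1.45, Sos1 at -1.06 and Prkca at -0.85. Relative to the median of all genes, Rasgrp1 was 0.026 below it with size factors, 0.42 below it under quantile normalization and 0.092 below it with the same FPKM total. When WT was taken as 1 sample, Dgkz, Prkch and Prkcd were called lower, 3 of 9, where 15.9% of all genes were called (8.74% lower and 7.16% higher).

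**Figure D4:**
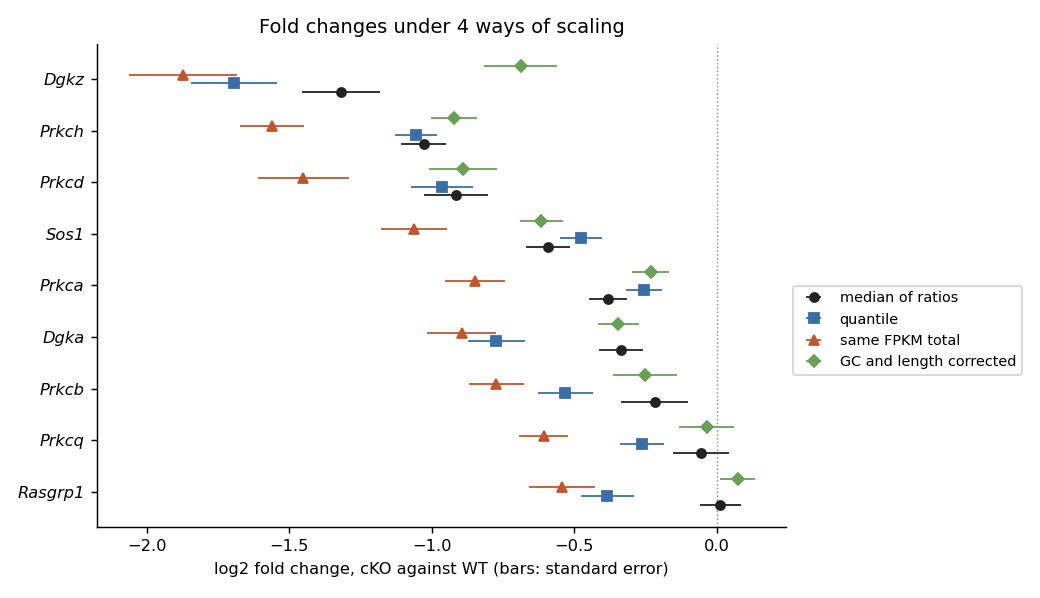
Log2 fold changes of the 9 genes (horizontal axis, bars are standard errors) with median-of-ratios size factors, quantile normalization, the same FPKM total, and the removal of length and GC trends. Dgkz, Prkch and Prkcd lie below 0 at each setting, whereas Rasgrp1 lies at 0.013 and 0.074 in the first and last and below 0 in the others.

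Markers of more mature cells moved with the genotype. Of 8 genes of mature single positive T cells, 6 fell and 2 rose, and none was at 0. Their summed FPKM overlapped, from 337 to 342 in WT and from 318 to 397 in cKO. In these bulk libraries fewer cells of a type and less RNA per cell cannot be told apart, and the part of mature, erythroid or other cells in the changes above was not tested. Erythroid genes were at a summed FPKM of 1.98 to 2.73 in WT and 12.4 to 26.6 in cKO, and the 6 epithelial genes at 5.46 to 6.80 and 4.10 to 6.91, with Foxn1 and Krt5 at 0 throughout.

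The rest of the pathway was described with 80 genes in 9 lists, of which 56 passed the filter on low values. Of these, 28 fell, 7 rose and 21 did not pass the test, with a median log2 fold change of -0.25, where 65.5% of all tested genes were called, 29.8% lower and 35.8% higher. The 35 called of 56 are thus close to the share of all genes. With WT taken as 1 sample, 10 fell and 0 rose (8.74% and 7.16% of all genes), and with the same FPKM total 49 fell and 0 rose (59.9% and 8.74% of all genes). The phospholipases C, which make diacylglycerol, had 3 of 4 tested genes lower. Plcg1, the isoform that the TCR uses, had an FPKM of 55.6 ± 0.152 (SD, n = 3) in WT and 26.8 ± 3.23 (SD, n = 3) in cKO. Its fall on the log2 scale was -1.04, with an adjusted p of 0.000205 from limma. Upstream of it, 2 of 8 Tec kinase and adaptor genes fell and 1 rose. Lat, the scaffold to which phospholipase C gamma 1 binds, had 1005 ± 9.42 and 964 ± 155 and did not pass the test.

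Of the remaining diacylglycerol kinases, 3 of 4 tested genes fell, where 29.8% of all tested genes were lower and 35.8% higher. Dgkd, the most abundant of them, had an FPKM of 104 ± 0.664 (SD, n = 3) in WT and 74.3 ± 11.03 (SD, n = 3) in cKO, and Dgkq fell from 7.42 ± 0.503 to 2.93 ± 1.54, a log2 fold change of -1.17 (adjusted p = 0.00443). Once length and GC trends were removed, 1 of the 4 was lower, where 2740 of the 10245 genes in that fit were lower and 3062 higher. Of the other protein kinases C, D and N, 4 of 7 fell and 1 rose, and 2 fell and 1 rose with those trends removed. Prkd2, the protein kinase D that PKC activates in thymocytes, had 94.3 ± 1.49 in WT and 57.1 ± 4.71 in cKO. Of the lipases and phosphatases that handle diacylglycerol and phosphatidic acid by other routes, 1 of 3 fell, Lpin2 (log2 fold change -0.38).

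The Ras GTPase-activating proteins, which switch Ras off, were lower in 8 of 8 tested genes, where 29.8% of all genes were, with a median log2 fold change of -0.65 beside 0.039 for all genes. With length and GC trends removed 6 of 8 were lower, beside 2740 of the 10245 genes in that fit, and the median was -0.36. With the same FPKM total 8 of 8 were lower, beside 59.9% of all genes, and the median was -1.11. Taking WT as 1 sample left 3 of 8 lower, where 8.74% of all genes were. Rasal3, a family member of blood cells, was the most abundant, at 146 ± 2.13 (SD, n = 3) in WT and 81.3 ± 7.67 (SD, n = 3) in cKO. Of the other exchange factors 3 of 4 fell and 1 rose, and Rasgrp2, which acts mainly on Rap1, fell from 52.1 to 29.3 (log2 fold change -0.82). Of the 12 tested genes of Ras, Raf, MEK and ERK, 2 fell, 3 rose and 7 did not pass. Of the 6 genes of the CARMA1 complex and PKC substrates, 2 fell and 1 rose, and Marcks, a classical PKC substrate, was higher by 0.21 on the log2 scale (adjusted p = 0.0435). The direction for Marcks turned with the scaling, to -0.14 under quantile normalization (adjusted p = 0.0413) and -0.34 with the same FPKM total (adjusted p = 0.00236). It did not pass with the replicate block, with length and GC trends removed or with WT taken as 1 sample, and of the 6 libraries only cKO 2 could be left out without losing the call. With length and GC trends removed, Plcg1 was at -0.67, Rasgrp2 at -0.46, Rasal3 at -0.32 and Prkd2 at -0.24, each still called lower, whereas Dgkd was at -0.23 and did not pass (adjusted p = 0.111 from limma). With WT taken as 1 sample Dgkd, Dgkq and Lpin2 did not pass (adjusted p of 0.132, 0.0709 and 0.145 from limma). Lat was called lower at -0.82 under quantile normalization and at -0.63 with the same FPKM total.

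**Figure D5:**
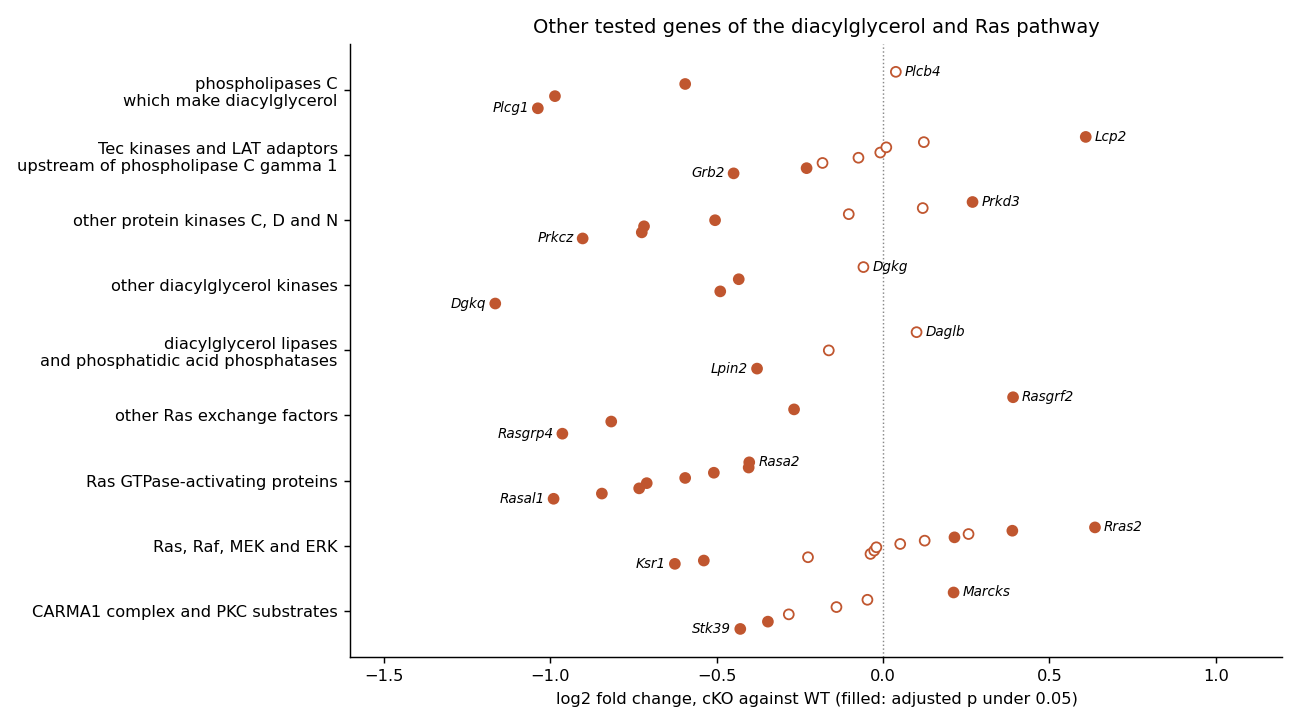
Log2 fold change (horizontal axis) of the 56 other tested genes of the pathway, grouped in 9 lists; filled points passed an adjusted p of 0.05, and the lowest and highest gene of each list are named. All 8 Ras GTPase-activating proteins lie left of 0 and are filled, whereas the 12 Ras, Raf, MEK and ERK genes spread to both sides.

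The genes whose levels followed Prkch most closely over the 6 libraries were Itgal, Inf2 and Bend3, with Pearson's r of 0.9997, 0.9991 and 0.9990 on log2(FPKM + 1). Itgal, the alpha chain of the integrin LFA-1, had an FPKM of 131.9, 133.4 and 131.7 in WT and 100.9, 107.3 and 106.6 in cKO. These correlations describe points that share the difference between the genotypes. Among the 9 genes, the lowest values rest on an estimated 411 fragments for Sos1 in cKO 1, which gives a counting error of 4.93%, and on 448 for Prkca in the same library, whereas Dgkz had at least 4110. Some pathway genes were nearer the filter, such as Dgkq with an FPKM of 1.86 in cKO 3.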

How the data were processed

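The authors prepared poly(A)-enriched, directional libraries from sorted DP thymocytes, and deposited FPKM values from Cufflinks, 1 per gene symbol and library, after trimming with fastx trimmer and alignment to mm10 by TopHat. The versions of these 3 tools, the annotation and the strand setting are not given in the sources used here. The study tested counts with DESeq2, which FPKM values are not, so limma was used instead. Median-of-ratios size factors scaled the libraries, genes below an FPKM of 1 in more than 3 libraries were left out, and log2(FPKM + 1) of the remaining 10326 was fitted by genotype (limma 3.58.1, R 4.3.3, trend, Benjamini-Hochberg over all tested genes at 0.05). Symbols were matched to GENCODE mouse release 21 and RefSeq synonyms, 22110 and 663 of 23183. Depth was estimated from low values among 2614 single-transcript genes over 1000 bases in length, taking fragments to be 200 bases long. Ratios and sums were compared by exact permutation tests. Length and GC trends were removed as splines (5 degrees of freedom each) from every library. The steps were tested on simulated data. Groups came from the sample labels. The 9 genes and the lists were chosen with earlier results of these data known. Named pathway genes were those called and at least 2-fold changed and the most abundant of each list, besides the 3 genes most like the member with the largest statistic, and 1 gene that the rule names is not reported here. Python 3.11.15, scipy 1.17.1 and matplotlib 3.10.9 were used.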

Additional observations from a re-analysis of the deposited data

How the results depend on the processing

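Over 16 alternative settings of the fit, Dgkz, Prkch and Prkcd stayed below 0 at an adjusted p under 0.05. The same held for Dgka and Sos1 except with WT taken as 1 sample (-0.34 and -0.59), and for Prkca except there (-0.38) and with length and GC trends removed and the replicate block together (-0.23, adjusted p = 0.0719). Quantile normalization and the same FPKM total gave Prkcq -0.26 and -0.61, Prkcb -0.53 and -0.77 and Rasgrp1 -0.38 and -0.54, each called lower. The same FPKM total called 6182 of all genes lower and 903 higher, and 49 and 0 pathway genes. Counting WT as 1 sample called 3 of the 9 genes, all lower, 1641 of all genes (902 lower, 739 higher) and 10 pathway genes (10 lower, 0 higher). The causes of these changes were not tested. The last setting changes both the number of samples and the spread that enters the fit, and cannot separate them. With each replicate left out in turn, 6 to 7 of the 9 genes were called, where the count over all genes ran from 5404 to 7637. The filter was applied anew each time, so the number tested can differ, and those shares were not computed. The log2 fold changes ran from -1.46 to -1.18 for Dgkz, -1.06 to -0.95 for Prkch and -1.03 to -0.81 for Prkcd. They ran from -0.63 to -0.54 for Sos1, -0.40 to -0.36 for Prkca and -0.38 to -0.28 for Dgka. For Prkcb they ran from -0.33 to -0.095 (called without cKO replicate 1). Those of Prkcq ran from -0.14 to 0.046 and those of Rasgrp1 from -0.032 to 0.041, this pair changing sign without cKO replicate 2. Pathway genes called higher ran from 4 (without WT replicate 2 or WT replicate 3) to 8. The deviations of same-numbered WT and cKO libraries had correlations of -0.022, 0.039 and 0.031. WT libraries differed by a factor of at most 1.61 over the counting noise, so these correlations cannot decide whether the numbers give a pairing. With the replicate block 6467 of the 10326 genes were called in place of 6766, and 6 of the 9, with Dgkz at -1.32. The 6 ratios kept their direction with each replicate left out, the replicate block, a pseudocount of 1 and WT taken as 1 sample. The ratios were not computed with length and GC trends removed. In the fits, that removal took the difference between Dgka and Dgkz from 0.98 to 0.34. No p under 0.1 is possible with 3 libraries per group. FPKM files carry no counts, and depths are estimates.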
